A study of Mus musculus with 28 samples.

Results

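The suppressor of cytokine signalling (SOCS) family was examined in murine bone marrow-derived macrophages (BMDM) exposed to von Willebrand factor (VWF) or lipopolysaccharide (LPS). The family was taken by name as its 8 genes, Socs1 to Socs7 and Cish, out of 54532 genes in the count table, and all 8 were present. The cells came from bone marrow of mice 8 to 12 weeks old of the strain spelled C57/B6JB, were grown with the macrophage growth factor M-CSF, and were washed and given fresh medium with 1 mM CaCl2. They were then left with PBS (control), 10 µg/ml pd-VWF (VWF purified from human plasma) or 100 ng/ml LPS (a bacterial cell wall component that Toll-like receptor 4 senses) for 3.5 h or 16 h. Control and VWF had 5 cultures at each time and LPS had 4, which made 28 cultures for bulk RNA sequencing. The labels call them biological replicates without saying whether they came from separate mice, so p-values measure the spread between these cultures. In bulk RNA, a change in RNA per cell and a change in the make-up of the culture cannot be told apart.

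SOCS proteins are intracellular brakes on cytokine signalling. Cytokine receptors activate Janus kinases (JAKs), which phosphorylate STAT transcription factors, and STATs switch on several SOCS genes, whose products return to the receptor or kinase. Each family member carries an SH2 domain that binds phosphotyrosine and a SOCS box that recruits elongins B and C and cullin 5 to mark bound proteins for degradation. SOCS1 and SOCS3 also inhibit JAK kinases directly. In macrophages SOCS1 is best known for restraining interferon responses and SOCS3 for restraining IL-6 signalling through gp130, while CISH and SOCS2 act mainly on STAT5-linked receptors for growth hormone and growth-factor-like cytokines. SOCS4 and SOCS5 have been tied to growth factor receptor signalling, and SOCS6 and SOCS7 to receptor tyrosine kinase and insulin signalling.

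The promoters of the 3 genes with the highest inductions are shown because STAT and interferon-driven factors bind short motifs that can be read directly in them. RefSeq windows on GRCm38.p6, from 250 bases before to 50 bases after the annotated start, matched 4 of the 8 genes (Socs1, Socs3, Socs4 and Cish). Capitals mark the STAT site GAS, TTCNNNGAA, and the interferon-stimulated response core (GAAA, any NN, GAAA), both searched on both strands, with positions counted from 1 at the start and from -1 before it. The Socs1 window is chr16:10785487-10785786 on the minus strand, the Socs3 window chr11:117969317-117969616 on the minus strand and the Cish window chr9:107296409-107296708 on the plus strand.
Socs1: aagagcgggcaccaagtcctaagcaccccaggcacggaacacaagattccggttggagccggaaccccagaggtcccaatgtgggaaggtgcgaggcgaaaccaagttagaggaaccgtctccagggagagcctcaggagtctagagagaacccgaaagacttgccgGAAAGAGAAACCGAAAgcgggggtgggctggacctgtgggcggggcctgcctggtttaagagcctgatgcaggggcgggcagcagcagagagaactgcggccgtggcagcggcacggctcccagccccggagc
Socs3: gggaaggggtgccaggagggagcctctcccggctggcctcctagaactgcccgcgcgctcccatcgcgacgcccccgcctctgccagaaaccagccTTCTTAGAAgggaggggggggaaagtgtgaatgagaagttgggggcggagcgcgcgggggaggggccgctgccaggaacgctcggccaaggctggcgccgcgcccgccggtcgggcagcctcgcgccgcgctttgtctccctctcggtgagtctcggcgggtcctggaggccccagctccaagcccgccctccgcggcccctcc
Cish: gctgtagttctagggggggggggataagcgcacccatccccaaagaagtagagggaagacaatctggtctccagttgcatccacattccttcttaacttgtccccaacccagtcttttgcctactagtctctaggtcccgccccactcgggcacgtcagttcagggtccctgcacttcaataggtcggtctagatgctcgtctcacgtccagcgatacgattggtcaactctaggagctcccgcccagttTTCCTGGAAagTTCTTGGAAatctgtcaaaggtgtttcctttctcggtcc

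The Socs1 window held 2 interferon-response cores, at -83 to -74 and at -77 to -68, which overlap and appear as 1 run of capitals. The Socs3 window held 1 GAS site at -154 to -146. In Cish 2 GAS sites stood at 1 to 9 and 12 to 20. The Socs4 window held neither motif, and none of the 4 windows matched the NF-kappaB consensus, searched on both strands. Among all 32851 RefSeq windows of this length, 8.3% held the GAS letters, 3.44% the interferon-response core and 8.46% the NF-kappaB consensus. A match is a run of letters and was not tested as a bound site.

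Levels are given as CPM, a gene's share of its culture's counts after scaling between cultures by TMM (trimmed mean of M-values) factors. TPM, given for markers and where genes are compared with one another, divides by gene length and uses no TMM factors. Total gene counts ran from 41131209 to 77699206 per culture, and TMM factors were lower in LPS cultures, 0.796 to 0.84 at 3.5 h and 0.735 to 0.848 at 16 h, than in control cultures, 1.13 to 1.17 and 0.945 to 1.18. All 7 macrophage markers (Adgre1, Cd68, Csf1r, Itgam, Mertk, Lyz2 and Fcgr1) reached 1 TPM in every group, but their summed level was 8690 to 15800 TPM in LPS cultures at 3.5 h against 18000 to 29800 TPM in controls. That sum was mostly Lyz2 (means of 10900 TPM with LPS and 20400 TPM in controls). In mean TPM, Fcgr1 was higher with LPS, at 415 against 119 TPM, and the remaining markers were lower. In the edgeR test described below, which uses TMM factors, 1 of the 7 was called higher with LPS and 0 lower. The other 6 were not called, where 24.5% of 8190 genes were called. Control culture 5 at 16 h stood apart, with a mean correlation of 0.91 with its group against 0.97 to 0.972 for the other 4 and summed macrophage markers of 6440 TPM against 28300 to 34800 TPM. LPS culture 4 at 16 h was also less like its group (0.946, with 5700 TPM of markers). Summed markers of other lineages stayed at or under 150 TPM in every culture, and the neutrophil marker Ly6g and the T cell marker Cd3e had group means of at most 0.0441 TPM, whereas S100a8, S100a9 and Cd4 of the same lists had group means of up to 58.6, 23 and 4.92 TPM. The part of these markers in the SOCS results was not tested.

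In resting macrophages the family was expressed at low level. Per length, control cultures at 3.5 h held 14.9 ± 1.60 TPM of Socs4 (SD, n = 5), 14.8 ± 1.18 TPM of Socs6, 14.7 ± 1.53 TPM of Socs5 and 10.8 ± 2.17 TPM of Socs7. Socs3 stood at 8.29 ± 4.37 TPM and Socs2, Cish and Socs1 at 2.76, 2.25 and 2.07 TPM. Socs1, Socs2, Socs3 and Cish, the members usually counted as cytokine-inducible, had the 4 lowest means in unstimulated cells by this length, although Socs3 ranged from 3.24 to 13.6 TPM and overlapped Socs7 (8.66 to 14.3 TPM). With VWF for 3.5 h the order turned over, with Socs3 at 1133 ± 126.5 TPM and Socs1 at 113.7 ± 26.5 TPM above all others, and LPS gave 1228 ± 324 TPM and 511 ± 58.8 TPM. Lengths were the union of all annotated exons of GENCODE M21 on GRCm38. With the longest coding transcript instead, Cish in VWF cultures at 3.5 h became 34.6 TPM in place of 21.9 TPM and Socs2 in controls 8.19 TPM in place of 2.76 TPM, which put it above Socs7 (7.79 TPM) and out of the 4 lowest.

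**Figure D1:**
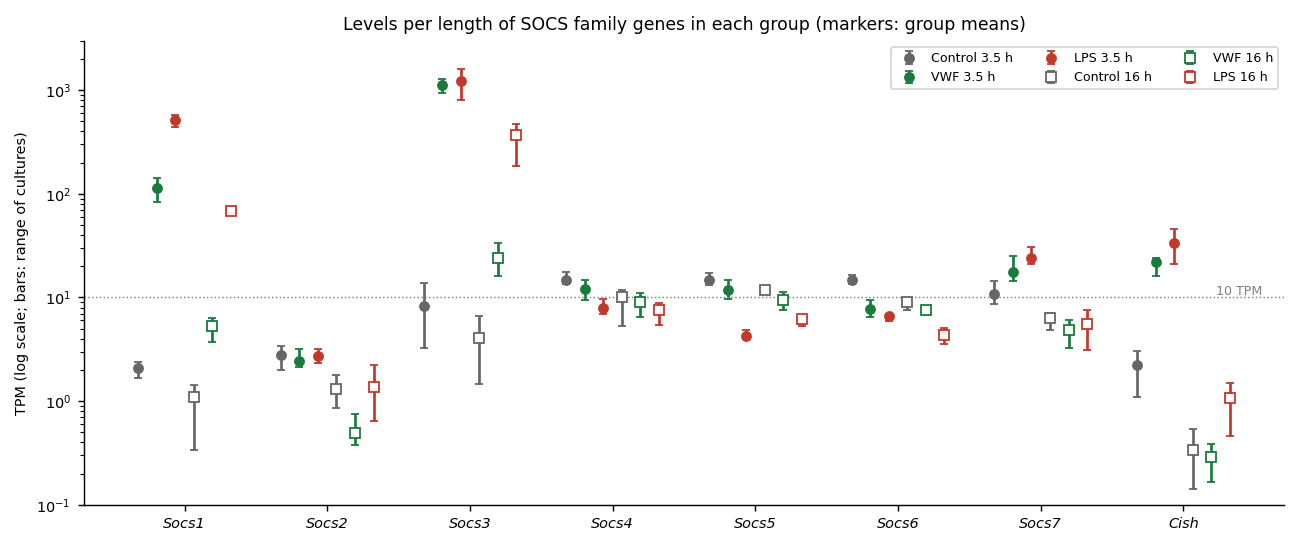
Level per length (TPM, log axis) of each SOCS gene in the 6 groups; markers are group means and bars the range of the 4 or 5 cultures, with circles for 3.5 h and squares for 16 h. Socs1 and Socs3 span the widest range of levels, and Socs4, Socs5 and Socs6 stay between 3.54 and 17.6 TPM in every culture.

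VWF for 3.5 h raised Socs3, Socs1 and Cish and none of the other members by more than the fold threshold. Differences were tested on counts with edgeR's quasi-likelihood test, Benjamini-Hochberg adjustment over all genes tested, and a gene was called at an adjusted p under 0.05 and a log2 fold change over 1 in size, among genes that reached 10 TPM in at least 1 culture compared. Of the 8 members 7 passed that level filter and 3 were called, all higher, where 14.7% of all 8200 genes tested were called and 9.18% called higher. The median log2 fold change of the 7 was 0.93 against 0.0015 for all genes, but Socs1 and Cish passed the filter only through the treated cultures. Socs6, which was lower with VWF and not called, passed only through the controls. With LPS for 3.5 h, 5 of the 7 were called, 4 higher and 1 lower, where 24.5% of 8190 genes were called, 12.8% higher and 11.8% lower. Here Socs1 and Cish passed the filter only through the LPS cultures. Socs5, the 1 called lower, and Socs4 and Socs6, which were not called, passed only through the controls. For these members the filter favoured the direction, so the counts describe the members and lend no support to a change. The summed dendritic cell markers moved with treatment, from 0.616 to 0.905 TPM in controls to 8.27 to 10.2 TPM with VWF and 10.4 to 11.9 TPM with LPS, mostly as Xcr1 (7.92 TPM on average with VWF), with Zbtb46 at 0.379 TPM in controls and 0.963 TPM with VWF, while Flt3 and Siglech stayed at or under 0.173 TPM. Their part in the SOCS results was not tested.

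Socs3 (ENSMUSG00000053113, chr11:117966079-117970047) was the most abundant member after either agonist. Its level in control cultures 1 to 5 at 3.5 h was 12.5, 8.19, 3.14, 9.01 and 3.98 CPM, and in VWF cultures 1 to 5 it was 1092, 1229, 1258, 1056 and 1200 CPM. LPS cultures 1 to 4 held 1155, 2106, 1860 and 1796 CPM. Every treated culture lay far above every control culture, and LPS culture 1 fell within the VWF range while the other 3 lay above it. The increase with VWF was 161-fold (log2 7.33 ± 0.40 SE, edgeR adjusted p = 6.5e-08) and with LPS 238-fold (log2 7.89 ± 0.45, adjusted p = 5.42e-08). VWF against LPS gave log2 -0.54 ± 0.15 (adjusted p = 0.0144), which passed the p threshold and not the fold threshold, and -0.25 (adjusted p = 0.161) when scaled by library size alone.

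Socs1 (ENSMUSG00000038037, chr16:10782240-10785536) separated the 2 agonists more. Control cultures held 2.15, 2.27, 1.63, 1.46 and 1.86 CPM at 3.5 h, VWF cultures 77.4, 142, 140.2, 160.4 and 82.8 CPM, and LPS cultures 634, 648, 831 and 805 CPM. The 3 groups did not overlap, with VWF cultures 1 and 5 the lowest of the treated ones. VWF raised Socs1 65.8-fold (log2 6.04 ± 0.265, edgeR adjusted p = 1.29e-08) and LPS 397-fold (log2 8.63 ± 0.19, adjusted p = 1.03e-10). The direct comparison put VWF below LPS by log2 -2.58 ± 0.22, or 0.168 of the LPS level (adjusted p = 6.32e-06).

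Cish (ENSMUSG00000032578, chr9:107296026-107302784) encodes CIS, an inhibitor of STAT5 signalling. It held 6.18, 6.25, 2.35, 4.78 and 2.71 CPM in controls at 3.5 h, 47.5, 54.6, 56.8, 40.8 and 50.3 CPM with VWF, and 67.4, 135, 116 and 97.8 CPM with LPS. Again the 3 groups did not overlap. VWF raised it 11.4-fold (log2 3.52 ± 0.28, edgeR adjusted p = 1.12e-06) and LPS 23.7-fold (log2 4.57 ± 0.33, adjusted p = 3.93e-07). VWF against LPS gave log2 -1.03 ± 0.18 (adjusted p = 0.000805), a call that stood close to the fold threshold: it was -0.74 when scaled by library size alone, and -0.98 without VWF culture 4, -0.88 without LPS culture 2 and -0.98 without LPS culture 3. Cish overlaps the pseudogene Gm17040 and the antisense gene Gm17041 on the opposite strand. The larger of these 2 overlaps covers 7.46% of its exon length, and whether counting used strand is not given in the sources used here.

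**Figure D2:**
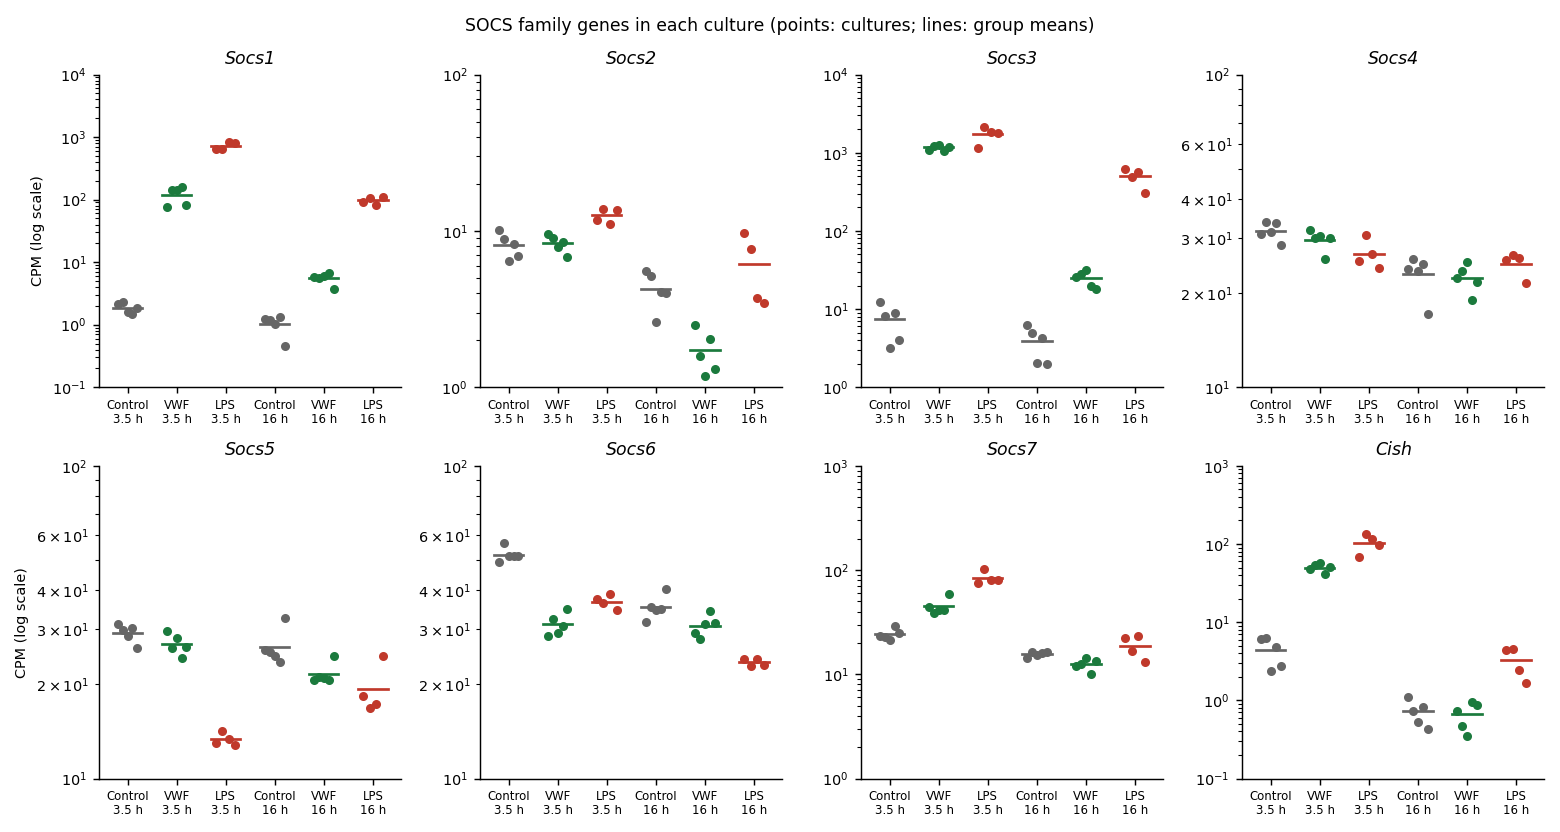
CPM (log axes that differ between panels) of the 8 SOCS genes in each of the 28 cultures; points are cultures and lines group means. At 3.5 h the VWF cultures of Socs1, Socs3, Cish and Socs7 all lie above their controls (18% of all genes tested do), and at 16 h those of Socs1 and Socs3 do (12.7% of all genes tested).

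Socs4 (ENSMUSG00000048379, chr14:47276931-47296102), Socs5 (ENSMUSG00000037104, chr17:87107679-87137839), Socs6 (ENSMUSG00000056153, chromosome 18) and Socs7 (ENSMUSG00000038485, chr11:97362551-97398542) moved less and not in one direction. Of the Socs6 exon sequence 4.35% is shared, over windows of 100 bases, with the gene Gm9449, so its counts are less certain there. Socs7 held 23.3, 22.9, 21.1, 28.8 and 24.9 CPM in controls at 3.5 h, 44.5, 39.0, 41.8, 41.2 and 59.5 CPM with VWF, and 76.0, 101, 80.6 and 80.4 CPM with LPS, with no overlap between groups. LPS raised it 3.55-fold (log2 1.83 ± 0.11, edgeR adjusted p = 9.6e-08). The VWF difference, log2 0.93 ± 0.13 or 1.91-fold (adjusted p = 9.72e-05), passed the p threshold just under the fold threshold. VWF against LPS was -0.88 ± 0.14 (adjusted p = 0.000416), and -1.02, past the fold threshold, without VWF culture 5, whose 59.5 CPM was the highest of its group.

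Socs5 was the 1 member that LPS lowered past the fold threshold. Controls at 3.5 h held 31.2, 29.8, 28.6, 30.4 and 26.1 CPM, VWF cultures 29.7, 26.1, 28.2, 24.4 and 26.3 CPM, and LPS cultures 13, 14.2, 13.4 and 12.8 CPM. The VWF and control cultures overlapped, and every LPS culture lay below both. LPS lowered Socs5 to 0.464 of control (log2 -1.11 ± 0.09, edgeR adjusted p = 7.55e-07), while VWF against control was -0.09 ± 0.08 (95% interval -0.246 to 0.0675, adjusted p = 0.421). VWF against LPS was 1.03 ± 0.09 (adjusted p = 6.5e-06), again close to the fold threshold, at 0.98 without VWF culture 1.

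Socs6 was below control with both agonists, without passing the fold threshold. Its control cultures at 3.5 h held 49.3, 56.6, 51.4, 51.4 and 51.5 CPM, VWF cultures 28.6, 32.4, 29.2, 30.7 and 34.7 CPM, and LPS cultures 37.4, 36.3, 39.0 and 34.5 CPM. All treated cultures lay below all controls, and VWF culture 5 reached into the LPS range. Under VWF the level was 0.61 of control (log2 -0.71 ± 0.07, edgeR adjusted p = 1.05e-05) and under LPS 0.717 of control (log2 -0.48 ± 0.08, adjusted p = 0.000205), both under the fold threshold. Against LPS, VWF was -0.27 ± 0.09 (adjusted p = 0.0361, from the fit without the 10 TPM filter described next), but 0.07 when scaled by library size alone.

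Socs4 and Socs2 gave no call at 3.5 h. Socs4 ranged from 28.5 to 33.8 CPM in controls, 25.6 to 31.8 CPM with VWF and 24.1 to 30.6 CPM with LPS, with overlap between all groups. VWF against control was -0.07 ± 0.08 (95% interval -0.225 to 0.0919, edgeR adjusted p = 0.57) and LPS -0.22 ± 0.10 (-0.413 to -0.0333, adjusted p = 0.0623). Socs2 (ENSMUSG00000020027, chr10:95385362-95417180), which shares 2.31% of such windows with Gm9847, never reached 10 TPM, so it was read, like other members under that filter in a given comparison, from the same edgeR test on all genes kept by edgeR's filterByExpr (a minimum count filter), adjusted over those. In that fit 14.8% of genes were called between VWF and control at 3.5 h, 27.5% between LPS and control and 12.7% between VWF and LPS. Socs2 ranged from 6.41 to 10.2 CPM in controls, 6.83 to 9.54 CPM with VWF and 11.1 to 13.8 CPM with LPS, so that only LPS cultures stood clear of the controls. LPS against control was 0.72 ± 0.15 (adjusted p = 0.00121), VWF against LPS -0.63 ± 0.13 (adjusted p = 0.00201) and VWF against control 0.11 ± 0.14 (adjusted p = 0.603), but scaled by library size alone the first was 0.13 (adjusted p = 0.478), the second -0.28 (adjusted p = 0.121) and the last -0.15.

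In the direct comparison of VWF with LPS at 3.5 h, 6 members passed the level filter and 3 were called, Socs1 and Cish lower and Socs5 higher with VWF, where 11.4% of 7500 genes were called, 4.71% higher and 6.71% lower. Socs5 passed the filter only through the VWF cultures, where it was higher, so its part of the count lends no support to a difference. Both agonists were compared with the same control cultures, so their fold changes are not independent of each other. Scaling by library size alone took the median log2 fold change of all genes from -0.017 to -0.54 for LPS against control and from 0.0015 to -0.215 for VWF against control.

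**Figure D3:**
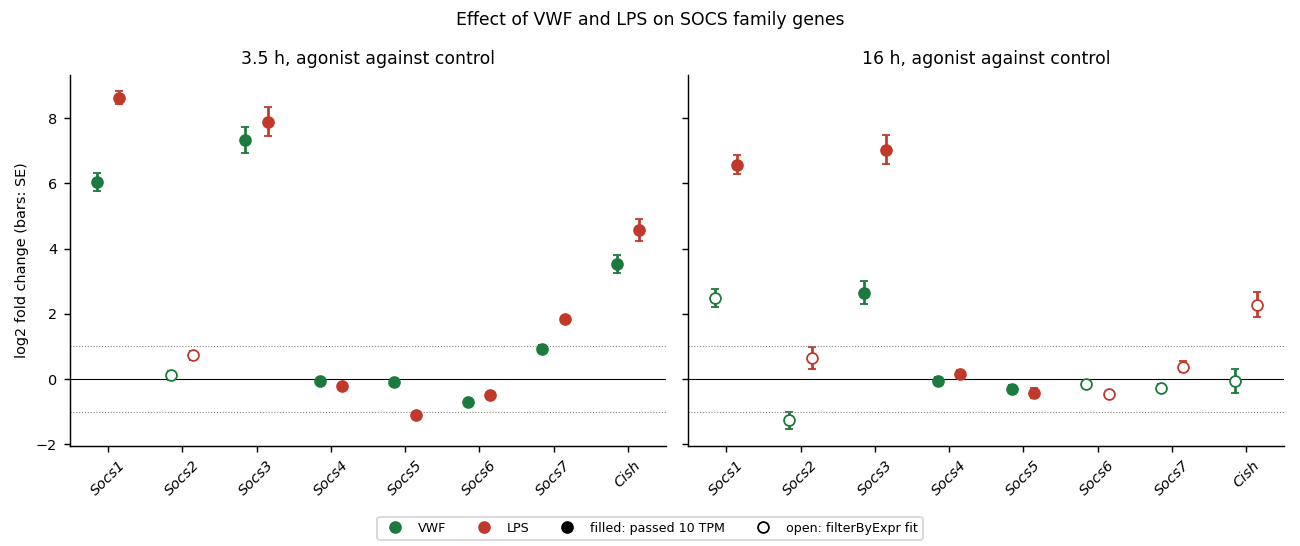
Log2 fold change of each SOCS gene against control of the same time for VWF and LPS; bars are SE, dotted lines the threshold at 1 and -1, and open symbols members read from the filterByExpr fit. At 3.5 h both agonists give large positive values for Socs1, Socs3 and Cish, and at 16 h the VWF values of Socs1 and Socs3 are 2.47 and 2.65 against 6.57 and 7.03 for LPS.

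By 16 h Socs3 and Socs1 were still above control with VWF, but far less, and Cish was not. Only 3 members passed the 10 TPM filter between VWF and control, and 1 was called (Socs3, higher), where 8.71% of 7798 genes were called and 4.55% higher. Of the 5 others, 2 were called in the filterByExpr fit, Socs1 higher and Socs2 lower, where 9.47% of genes were called, 4.26% higher and 5.21% lower. With LPS 4 members passed the filter and 2 were called (Socs1 and Socs3, higher), where 27.6% of 7994 genes were called and 15.3% higher, and 1 of the 4 others was called in the filterByExpr fit (Cish, higher), against 27.9% of genes called and 14.3% higher. Socs3 with VWF, and Socs1 and Socs3 with LPS, passed the 10 TPM filter only through the treated cultures, where they were high. These counts therefore describe the members and lend no support to an increase.

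Socs3 held 6.20, 5.01, 2.05, 4.25 and 1.97 CPM in controls at 16 h, 25.6, 28.3, 31.8, 19.9 and 18.0 CPM with VWF, and 619.5, 490.5, 571 and 306.5 CPM with LPS. The groups did not overlap. VWF was 6.28-fold above control (log2 2.65 ± 0.35, edgeR adjusted p = 0.000224) and LPS 130-fold (log2 7.03 ± 0.45, adjusted p = 1.19e-06). Without control culture 5, which stood apart, these were 2.48 and 6.85. VWF was 0.0499 of LPS (log2 -4.33 ± 0.25, adjusted p = 4.76e-07).

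Socs1 held 1.21, 1.19, 1.03, 1.32 and 0.464 CPM in controls at 16 h, 5.85, 5.67, 6.02, 6.82 and 3.69 CPM with VWF, and 91.4, 104.5, 81.3 and 111 CPM with LPS. No groups overlapped, and the lowest control was culture 5. In the filterByExpr fit VWF was 5.56-fold above control (log2 2.47 ± 0.28, edgeR adjusted p = 8.13e-05), or 2.295 on the log2 scale without control culture 5. LPS was 95-fold above control (log2 6.57 ± 0.29, adjusted p = 1.3e-07; 6.39 without that culture), and VWF was 0.0579 of LPS (log2 -4.11 ± 0.18, adjusted p = 8.38e-08).

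Cish at 16 h was near the limit of the counts. Controls held 1.12, 0.729, 0.529, 0.814 and 0.425 CPM, VWF cultures 0.723, 0.473, 0.349, 0.958 and 0.860 CPM, and LPS cultures 4.37, 4.53, 2.45 and 1.69 CPM, from 22 to 83, 22 to 54 and 67 to 236 counts. VWF and control cultures overlapped throughout, while LPS cultures lay above both. VWF against control was -0.06 ± 0.36, with a 95% interval from -0.763 to 0.639 (edgeR adjusted p = 0.936), and LPS against control was 2.28 ± 0.38 (adjusted p = 0.000724; 2.15 without control culture 5).

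Socs2 was the 1 member that VWF lowered past the fold threshold. Controls at 16 h held 5.58, 5.13, 2.63, 4.04 and 3.98 CPM, VWF cultures 2.52, 1.58, 1.18, 2.02 and 1.30 CPM, and LPS cultures 9.70, 7.64, 3.74 and 3.48 CPM. VWF cultures lay below all control and LPS cultures, and LPS cultures spread across and above the control range. In the filterByExpr fit VWF was 0.417 of control (log2 -1.26 ± 0.26, edgeR adjusted p = 0.00529; -1.28 without control culture 5) and 0.277 of LPS (log2 -1.85 ± 0.34, adjusted p = 0.00114). LPS against control was 0.63 ± 0.34 (95% interval -0.0289 to 1.3, adjusted p = 0.157).

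None of Socs4 to Socs7 was called against control at 16 h by edgeR or DESeq2. Socs4 ranged from 17.2 to 25.7 CPM in controls, 19.0 to 25.1 CPM with VWF and 21.5 to 26.4 CPM with LPS, with log2 differences from control of -0.05 ± 0.13 for VWF and 0.15 ± 0.13 for LPS (-0.41 when scaled by library size alone). Socs5 stood at 23.6 to 32.7 CPM in controls, 20.6 to 24.7 CPM with VWF and 16.9 to 24.6 CPM with LPS. Its differences from control, -0.29 ± 0.10 for VWF (edgeR adjusted p = 0.0481) and -0.41 ± 0.155 for LPS (adjusted p = 0.0465), were at the p threshold, and without control culture 5 the second had an adjusted p of 0.0654. Socs6 was 0.722 of control with LPS (log2 -0.47 ± 0.10, adjusted p = 0.00328), its 4 LPS cultures at 22.9 to 24.2 CPM lying below controls at 31.7 to 40.5 CPM, and -1.08 when scaled by library size alone. Socs7, from 10.1 to 23.1 CPM across the 3 groups, differed from control by -0.27 ± 0.11 with VWF (adjusted p = 0.094) and 0.38 ± 0.16 with LPS (adjusted p = 0.0786; -0.22 when scaled by library size alone).

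Between VWF and LPS at 16 h, 4 members passed the 10 TPM filter and 2 were called, Socs1 and Socs3, both lower with VWF, where 25.5% of 7574 genes were called and 14.5% lower. Of the 4 others 2 were called in the filterByExpr fit, Socs2 and Cish, also lower with VWF, where 27.1% of genes were called and 14.5% lower. Socs1 passed the 10 TPM filter only through the LPS cultures, where it was high, so its part of the count lends no support to a difference. Cish was 0.203 of the LPS level (log2 -2.30 ± 0.38, edgeR adjusted p = 0.000535). The labels do not say that replicate numbers pair cultures. In these 2 groups cultures of the same number deviated alike from their group means (r from 0.16 to 0.781 in 4 pairs). The values given for this comparison come from the fit without a block. With the number as a block the same 2 and 2 members were called, with Socs1 at -3.99, Socs3 at -4.21, Socs2 at -1.71 and Cish at -2.41. Summed macrophage markers also differed between these groups, 28000 to 50100 TPM with VWF and 5700 to 15200 TPM with LPS. The sum was mostly Lyz2 (means of 35700 and 6200 TPM). In mean TPM, which uses no TMM factors, Adgre1, Csf1r, Itgam and, slightly, Cd68 were also lower with LPS. Fcgr1 (1860 against 840 TPM) and Mertk (41.8 against 27.4 TPM) were higher with LPS. In the edgeR test, which uses TMM factors, 1 of the 7 markers was called higher with VWF and 2 lower. The other 4 were not called, where 25.5% of all genes tested were called. Summed endothelial markers were 11.3 to 21.8 TPM with LPS against 1.65 to 2.86 TPM with VWF. With LPS they were mostly Kdr (mean 12.9 TPM, against 0.482 TPM with VWF), and Pecam1 (3.72 against 1.32 TPM) and Cdh5 (0.621 against 0.448 TPM) differed less. The part of these markers was not tested.

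Socs1, Socs3, Socs7 and Cish were lower at 16 h than at 3.5 h with either agonist. In VWF cultures 4 of 6 members tested were called lower at 16 h than at 3.5 h, where 21.4% of 7927 genes were called and 12.2% lower. In LPS cultures 4 of 4 were called lower, where 28.1% of 6987 genes were called and 13.5% lower, although the 4 members under the filter were not in that count. In VWF cultures Socs1, Socs7 and Cish, and in LPS cultures Socs7 and Cish, passed the filter only through the 3.5 h cultures, where they were high, so these counts describe the members and lend no support to a fall. Controls gave 0 calls among 5 members tested, where 9.11% of 8333 genes were called by edgeR; 3 of the 5 (Socs4, Socs6 and Socs7) had an unadjusted p under 0.05, all 3 also passed after adjustment, and DESeq2 called 0 as well.

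Cish fell the most with VWF, from a mean of 50 to 0.673 CPM (log2 -6.23 ± 0.24, edgeR adjusted p = 4.78e-09). Socs3 fell from 1167 to 24.7 CPM (-5.55 ± 0.18, adjusted p = 1.48e-09), Socs1 from 120.6 to 5.61 CPM (-4.42 ± 0.26, adjusted p = 7.05e-08) and Socs7 from 45.2 to 12.5 CPM (-1.85 ± 0.14, adjusted p = 5.14e-07). For all 4 the cultures of the 2 times did not overlap, as for 54.5% of all genes tested. With LPS the falls were -4.96 ± 0.37 for Cish, -2.88 ± 0.15 for Socs1, -2.14 ± 0.20 for Socs7 and -1.77 ± 0.25 for Socs3, with edgeR adjusted p from 9.44e-07 to 0.000281. Socs3 thus remained at 497 ± 138 CPM in LPS cultures at 16 h.

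In the filterByExpr fit Socs2 was called lower at 16 h with VWF (-2.30 ± 0.21, edgeR adjusted p = 1.6e-06, where 24.4% of genes were called and 13% lower) and with LPS (-1.04 ± 0.31, adjusted p = 0.0163, where 29.9% were called and 14.1% lower). The LPS call on Socs2 was lost without LPS culture 3 or 4 of 16 h, at -0.87 for each. Cish was called lower in control cultures too (-2.64 ± 0.35, adjusted p = 0.000282, where 10.8% of genes were called and 5.15% lower), from 4.45 to 0.723 CPM. Cultures without agonist were thus not at a fixed level of Cish, and each agonist was compared with controls of its own time. Under the fold threshold, control cultures were lower at 16 h for Socs2 (-0.95 ± 0.21), Socs1 (-0.87 ± 0.28, with an adjusted p of 0.0307, or 0.0619 when scaled by library size alone), Socs7 (-0.62 ± 0.10), Socs6 (-0.54 ± 0.08) and Socs4 (-0.45 ± 0.11), and with Cish 6 of the 8 members lay lower there without overlap, as did 19.3% of all genes tested. Also under it, Socs4 and Socs5 were lower at 16 h with VWF (-0.40 ± 0.09 and -0.31 ± 0.08, the second with an adjusted p of 0.0798 when scaled by library size alone) and Socs6 with LPS (-0.64 ± 0.10). Socs5 was the 1 member with a higher value at 16 h than at 3.5 h, in LPS cultures, without passing the fold threshold (0.54 ± 0.15, adjusted p = 0.0125).

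**Figure D4:**
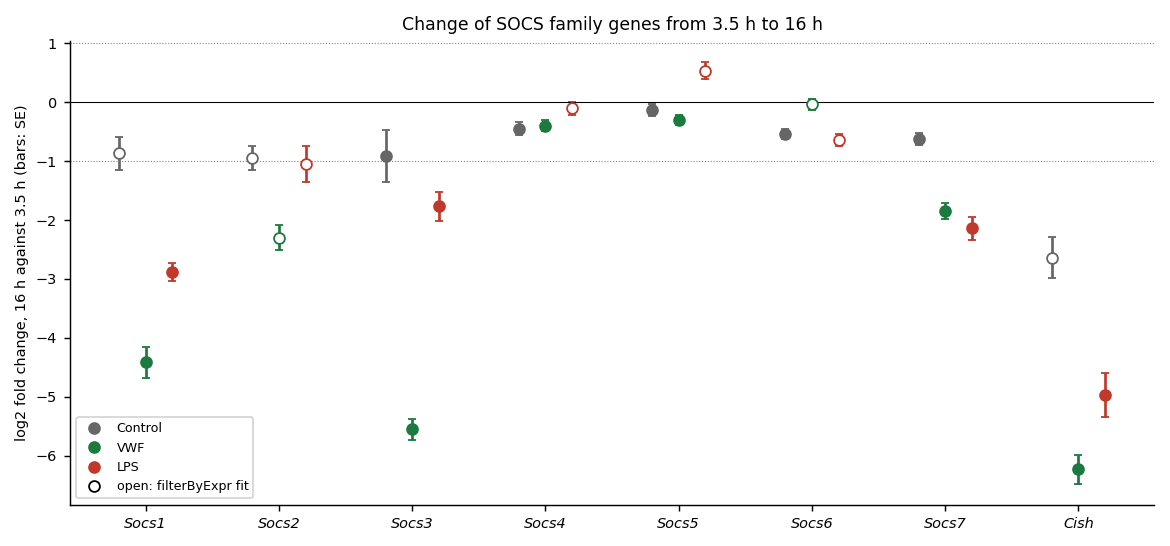
Log2 fold change of each SOCS gene from 3.5 h to 16 h within control, VWF and LPS cultures; bars are SE, dotted lines the threshold at 1 and -1, and open symbols members read from the filterByExpr fit. Socs3 falls by 5.55 with VWF and by 1.77 with LPS, while Cish falls in all 3 conditions.

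Whether the agonist effect itself differed between times was tested as an interaction, the log2 fold change against control at 16 h minus that at 3.5 h. For VWF 4 of 7 members were called, all with smaller effects at 16 h, where 13.5% of 8660 genes were called and 8.05% lower. Socs1 and Cish passed the filter only through the VWF cultures of 3.5 h, where they were high, so this count lends no support to a smaller effect. The differences were -4.66 ± 0.49 for Socs3, -3.64 ± 0.44 for Cish, -3.61 ± 0.35 for Socs1 and -1.24 ± 0.17 for Socs7 (edgeR adjusted p from 1.15e-07 to 9.04e-06), and -1.35 ± 0.30 for Socs2 in the filterByExpr fit (adjusted p = 0.00164), where 13% of genes were called and 7.46% lower. The VWF effect on Socs2 was 0.11 at 3.5 h and -1.26 at 16 h, so it was larger in size at 16 h. That on Socs7 went from 0.93 to -0.27. For LPS 3 of 7 were called, where 26.3% of 8748 genes were called and 12.8% lower: Cish at -2.36 ± 0.50, Socs1 at -2.05 ± 0.29 and Socs7 at -1.51 ± 0.20. Cish passed that filter only through the LPS cultures of 3.5 h, and Socs1 only through LPS cultures, of both times. The same limit thus holds for the Cish part of this count. The LPS effect on Socs3 differed between times by -0.86 ± 0.55 (95% interval -1.93 to 0.218, adjusted p = 0.209), which did not pass, and Socs2, in the filterByExpr fit where 24.6% of genes were called, gave -0.11 ± 0.37 (adjusted p = 0.845).

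The difference between VWF and LPS also widened with time for some members. As an interaction of VWF minus LPS, 16 h minus 3.5 h, 3 of 6 members were called, all lower, where 25% of 8217 genes were called and 14.3% lower. Socs3 had the largest value among members, -3.80 ± 0.30 (edgeR adjusted p = 1.68e-08), followed by Socs1 at -1.55 ± 0.29 (adjusted p = 0.00027) and Cish at -1.29 ± 0.40 (adjusted p = 0.0119). Socs2, in the filterByExpr fit where 23.6% of genes were called and 12% lower, gave -1.20 ± 0.36 (adjusted p = 0.0127), and -0.93 without LPS culture 1 of 16 h. The fitted level of Socs3 with VWF was 0.686 of that with LPS at 3.5 h and 0.0499 of it at 16 h. Under the fold threshold, the difference narrowed for Socs5, from 1.03 at 3.5 h to 0.17 at 16 h (-0.89 ± 0.15, edgeR adjusted p = 0.000115). For Socs6, in the filterByExpr fit, it went from -0.27 to 0.36 (0.66 ± 0.12, adjusted p = 0.000328).

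The genes around the SOCS proteins in the pathway were read from lists of JAK kinases, STAT factors, cytokines, receptors, ligase partners, other inhibitors and STAT targets. With VWF at 3.5 h, 1 of 4 JAK kinases was called higher (Jak2, log2 3.17, the kinase of many cytokine receptors) and 4 of 6 STAT factors tested (Stat2 at 3.24 and Stat5a at 2.61 the largest). Of the cytokines that signal through JAKs, 7 of 9 tested were called higher, led by Il12b at 11.23, Il6 at 9.27 and Il27 at 6.65. Of 18 receptors tested, 8 were called higher, led by Il15ra at 3.40 and Il10ra at 1.75, and 1 lower, the IL-6 receptor chain Il6ra at -1.23, named after its value was seen. Among STAT target genes 5 of 6 tested were called higher, with Irf1 at 3.01, Bcl3 at 2.66 and Pim1 at 2.64. Over all genes tested 14.7% were called and 9.18% called higher. The medians of these lists ran from 0.71 for receptors to 4.47 for cytokines, against 0.0015 for all genes, but Il12b, Il6 and other cytokines passed the level filter only through treated cultures, which fixes their direction.

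The partners that build the SOCS box ligase (Elob, Eloc, Cul5, Rnf7 and Ube2f) include the genes of its scaffold and adaptors. With VWF at 3.5 h 1 of 5 was called higher (Ube2f, the NEDD8-conjugating enzyme that acts with Rnf7 on cullin 5, at 1.08), and LPS gave the same count (Ube2f at 1.88). Of 11 other inhibitors, such as PIAS proteins and tyrosine phosphatases, VWF raised 1 (Usp18, which restrains interferon receptor signalling, at 5.26) and lowered 1 (Sh2b3, an adaptor that restrains JAK2, at -1.33). With LPS 2 of the 11 were called higher (Usp18 at 7.30 and the phosphatase gene Ptpn2 at 2.42) and 1 lower (Sh2b3 at -2.02). Over all genes tested 14.7% were called with VWF, 9.18% higher, and 24.5% with LPS, 12.8% higher and 11.8% lower. So few calls in lists of this size are not read as a result about the lists. The medians of these lists of partners and other inhibitors were 0.142 and 0.155 with VWF and 0.635 and -0.07 with LPS, against 0.0015 and -0.017 for all genes.

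With LPS at 3.5 h the cytokines called higher were 8 of 9, led by Ifnb1 at 12.08, Il6 at 11.87 and Il12b at 9.70, and 5 of 6 STAT factors, led by Stat5a at 3.99 and Stat2 at 3.61. The JAK kinases again gave Jak2 as the only call (3.48). Of 18 receptors tested 6 were called higher, led by Il15ra at 6, Il10ra at 2.70 and Il13ra1 at 2.17, and 2 lower. STAT targets gave 6 of 7 higher and 1 lower (Bcl6, a transcriptional repressor, at -1.06, named after its value was seen). Over all genes tested 24.5% were called, 12.8% higher and 11.8% lower, and here too several cytokines passed the level filter only through treated cultures.

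At 16 h the same lists separated the agonists. With VWF 2 of 5 STAT factors were called higher (among them Stat2 at 1.93), 1 of 17 receptors (Il4ra at 1.36) and 1 of 6 STAT targets (Bcl3 at 1.59), and 1 of 3 cytokines tested was called lower (Osm at -1.09). The 4 JAK kinases had a median of 0.122. Among the other inhibitors only Usp18 was called, at 4.01. With LPS 3 of 4 JAK kinases, 3 of 5 STAT factors, 8 of 8 cytokines tested, 12 of 19 receptors and 6 of 7 STAT targets were higher, with Il6 at 9.88, Il12b at 7.90, Il15ra at 5.47, Stat2 at 4.29 and Jak2 at 2.98. Over all genes tested, 8.71% were called with VWF, 4.55% higher, and 27.6% with LPS, 15.3% higher. These counts include genes that passed the level filter only through the treated cultures.

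**Figure D5:**
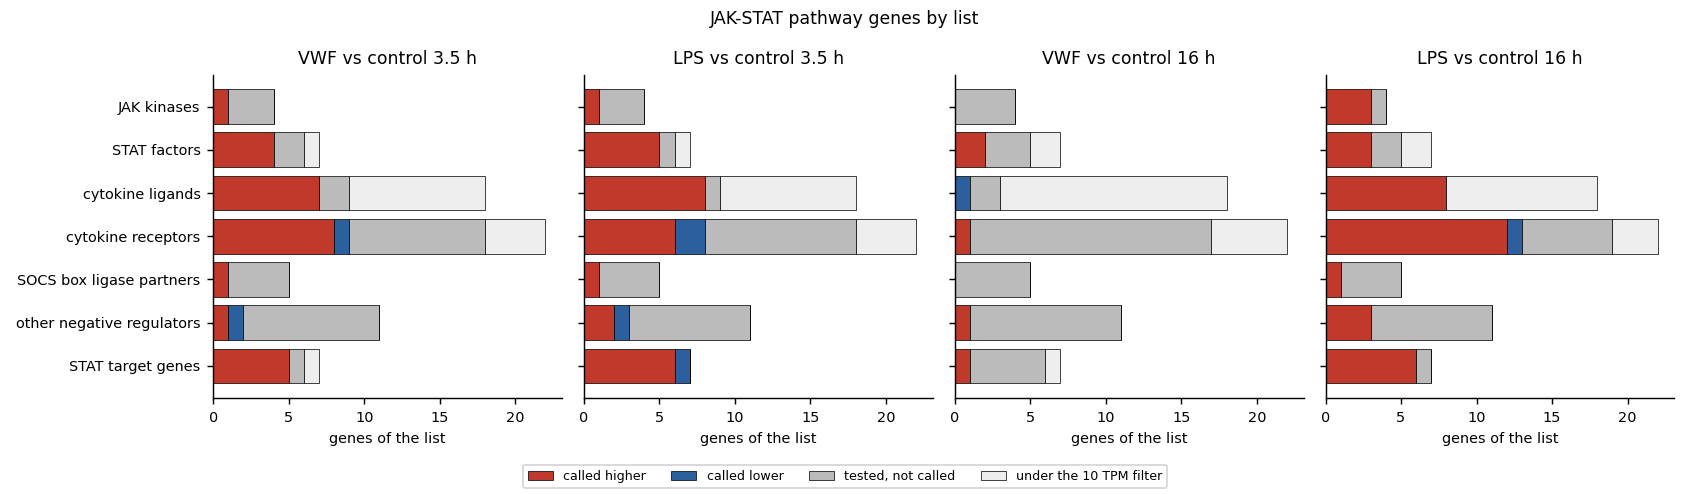
Number of genes of each JAK-STAT list called higher, called lower, tested without a call, or under the 10 TPM filter, in the 4 comparisons with control. At 16 h VWF gives at most 2 called genes in any list, while LPS gives 8 cytokines and 12 receptors called higher.

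Across the 6 groups the members kept different orders. Socs1 fell in the order LPS 3.5 h (730 ± 103 CPM), VWF 3.5 h (120.6 ± 37.9), LPS 16 h (97.2 ± 13.4), VWF 16 h (5.61 ± 1.16), control 3.5 h (1.87 ± 0.34) and control 16 h (1.04 ± 0.34), and only VWF 3.5 h and LPS 16 h overlapped among neighbours. Socs3 had LPS and VWF at 3.5 h overlapping at the top (1729 ± 405.5 and 1167 ± 88.3 CPM), then LPS 16 h and VWF 16 h, each apart, and the 2 control groups overlapping at the bottom. For Cish, LPS 3.5 h and VWF 3.5 h stood apart from each other and from the rest, control 3.5 h overlapped LPS 16 h, and control and VWF at 16 h overlapped. Socs4 overlapped between every pair of neighbours in its order, whose means ran from 22.3 to 31.6 CPM. Socs6 had control 3.5 h alone at the top and LPS 16 h alone at the bottom.

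The genes whose log2 CPM followed each member most closely over the 28 cultures were listed among 8867 genes that reached 10 TPM, as a description. For Socs1 they were Gm18445, Ifih1 and Cd69 (Pearson r 0.989, 0.988 and 0.987), and for Socs3 Nfkb2, Cxcl10 and Gbp5 (0.986, 0.984 and 0.984). Cish ran closest to Odc1, Stx6 and Ppp4r2 (0.973, 0.973 and 0.971) and Socs7 to Fnbp4, Vezf1 and Ikzf1 (0.974, 0.973 and 0.972). The less variable members had lower values, with Ccnt1 and Khdc4 at 0.94 for Socs4, Nmt2 at 0.916 for Socs6 and Mex3d at 0.901 for Socs5. All points share the same libraries and group structure, so these values mostly compare 6 group levels.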

How the data were processed

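Per the labels and the study's methods, STAR was used by the authors to align read pairs (150 bases each) to GRCm38 (mm10) and to quantify them (version and strand setting not given in the sources used here), and the deposited values are raw counts per Ensembl gene, 1 column per culture. Symbols and exon lengths came from GENCODE M21. Counts were tested in R 4.3.3 with edgeR 4.0.16 (glmQLFit, robust, TMM factors), fitting only the groups compared, over genes at or above 10 TPM in 1 or more of those cultures, with calls at Benjamini-Hochberg 0.05 and a log2 change above 1 in size. Members under 10 TPM were read from the same test on genes kept by filterByExpr. SE is the size of the log2 fold change over the square root of F. CPM used TMM factors from the 8867 genes that reached 10 TPM. Depth was 41131209 to 77699206 counts per culture. On simulated counts, 81% to 99% of genes changed by log2 1.5 were called, with at most 4 false calls a comparison: for VWF against control at 3.5 h (8200 genes) it was 99%. No 2 cultures of a group agreed within sampling noise (52 pairs, lowest chi-square per degree of freedom 15.8). The labels state no pairing of cultures by replicate number. By that number, every one of 4 pairs of VWF and LPS cultures at 16 h correlated above 0.1 in deviations from group means (0.16 to 0.781). No other 2 groups did so, and whether chance gave this was not tested. Alternatives were DESeq2 1.42.0, other scalings, filters and thresholds, a replicate block and leaving out each culture. Named genes were the 8 members, up to 3 called genes of largest change in each list, and the 3 genes most correlated with each member. Some genes that this rule covers are not reported here. The members and lists were chosen with earlier results of these data known.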

Additional observations from a re-analysis of the deposited data

Results flagged for a closer look

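In 4 of 48 groups of cultures the highest or lowest CPM of a SOCS gene stood apart from the others by Dixon's criterion, where chance gives about 1 in 20. At 16 h control culture 5 had the lowest Socs4 (17.2 CPM, the others 23.5 to 25.7 CPM) and the highest Socs5 (32.7 CPM, the others 23.6 to 25.8 CPM), and this was the culture least like its group. VWF culture 5 at 16 h had the highest Socs5 (24.7 CPM, the others 20.6 to 21.2 CPM). VWF culture 5 at 3.5 h had the highest Socs7 (59.5 CPM, the others 39.0 to 44.5 CPM).

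Values of the edgeR interaction term past the p and fold thresholds are listed first. The effect of treatment differed between the 2 times for 5 members with VWF: Socs3 by -4.66, Cish by -3.64, Socs1 by -3.61, Socs2 by -1.35 and Socs7 by -1.24 (log2). With LPS it differed for Cish by -2.36, Socs1 by -2.05 and Socs7 by -1.51. The difference between VWF and LPS changed with time for Socs3 by -3.80, Socs1 by -1.55, Cish by -1.29 and Socs2 by -1.20. Other members passed the p threshold and not the fold threshold. Among them were Socs6 with VWF (0.52), and Socs5 (0.71) and Socs4 (0.38) with LPS. For VWF minus LPS they were Socs5 (-0.89), Socs6 (0.66) and Socs4 (-0.34).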

How the results depend on the processing

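With DESeq2, median-of-ratios factors, 1 fit of all groups, a replicate block, or a 10 TPM filter on the longest coding transcript (added after seeing the data), no member changed its call or direction: in each of the first 4 settings 96 of 96 member values were the same, and with the block the count of members called between VWF and LPS at 16 h was 2, as without it, and no other call changed. With library size scaling member counts moved by at most 1.5 times (2 in place of 3 for VWF against LPS at 3.5 h), but 6 uncalled log2 values turned sign: Socs2 in VWF against control at 3.5 h (-0.15), Socs6 in VWF against LPS at 3.5 h (0.070), Socs4 and Socs7 in LPS against control at 16 h (-0.41 and -0.22), Socs4 in VWF against LPS at 16 h (0.29) and Socs6 in VWF 16 h against 3.5 h (0.077). That scaling also moved Cish in VWF against LPS at 3.5 h to -0.74, under the threshold, and Socs6 in LPS against control at 16 h to -1.08, past it, and it took the median of all genes to -0.57 for LPS against control at 16 h, where it was -0.029.

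The counts of members called depended most on the filter and the fold threshold. With no fold threshold, counts became 5 in place of 3 for VWF against control at 3.5 h, 5 in place of 3 for VWF against LPS at 3.5 h, 2 in place of 1 for VWF against control at 16 h, 3 in place of 0 for control 16 h against 3.5 h, 5 in place of 3 for both the LPS and the VWF minus LPS interaction, and 21 in place of 10 for members under the filter over all comparisons. Testing against a fold of 2 (glmTreat) left 1 member for VWF against LPS at 3.5 h, 1 for the VWF minus LPS interaction and 6 for those under the filter. With filterByExpr or no filter, 3 members were called for VWF against control at 16 h, 4 for VWF against LPS at 16 h and 1 for control 16 h against 3.5 h, since more members were tested, and with 10 TPM counted over all 28 cultures 2 and 1 were called in the first and the last. Socs4 in VWF against control at 16 h turned to 0.0075 with filterByExpr and 0.015 with no filter, and Socs5 in VWF against LPS at 3.5 h came to 0.98 and 0.99, under the threshold. Where the causes are not named here, the cause was not tested.

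Leaving out each culture in turn changed 22 of 1118 member values. The count for VWF against LPS at 3.5 h ran from 2 to 4, and members under the filter from 9 to 11. Uncalled values that turned sign stayed small: Cish in VWF against control at 16 h, -0.22 to 0.15; Socs4 there, -0.14 to 0.0091; Socs4 in the VWF interaction, -0.043 to 0.10; and Socs2 in the LPS interaction, -0.40 to 0.095. Socs2 in control 16 h against 3.5 h passed the fold threshold without any of 4 cultures (to -1.06). Without control culture 5 of 16 h no member count changed. At 16 h Cish rested on as few as 22 counts a culture, so a change within its interval was not detectable.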
